A study of Mus musculus with 8 samples.

Results

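TGF-beta signalling was followed through 9 genes: the ligand genes Tgfb1, Tgfb2, Tgfb3 and Inhba, the receptor genes Tgfbr1, Tgfbr2 and Tgfbr3, the feedback inhibitor Smad7 and the responder Tgfbi. They were picked by symbol from the 23361 genes of the deposited RNA sequencing table, and all 9 were found there. The study deleted the tumor suppressor genes Trp53 and Rb1 in Lgr5+ cells of the mouse stomach and sequenced whole-tissue RNA of the cancers that formed at the squamous-columnar junction (SCJ), where the squamous forestomach meets the glandular stomach. The 5 SCJ cancers, labelled Trp53-/-Rb1-/-, came from mice with the Lgr5-eGFP-Ires-CreERT2 knock-in, with Trp53 and Rb1 each loxP/loxP, and with the Ai9 reporter, which were given tamoxifen as adults and examined many months later, with their borders set by the tdTomato reporter. Cre was expressed from the Lgr5 locus, so the deletion was directed to Lgr5+ cells and their progeny, while whole tissue also holds other cells. The 3 controls were SCJ tissue of wild-type stomachs from mice of matching age. Reporter alleles, tamoxifen and tumor growth therefore differed together between the groups and cannot be told apart. The controls came from 3 stomachs, whereas for the cancers the sources used here do not say whether each came from a separate mouse, so p-values measure the spread between these libraries.

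The ligands TGF-beta 1, 2 and 3 are made as precursors, cut by furin and held latent by their own propeptide, which is tethered to the matrix or to cell surfaces until integrins, thrombospondin or proteases release it. Active ligand binds the type II receptor TGFBR2, which phosphorylates the type I receptor TGFBR1, while TGFBR3 (betaglycan) presents ligand to the pair. TGFBR1 phosphorylates SMAD2 and SMAD3, which join SMAD4 and act on genes in the nucleus, and activins made from INHBA reach the same SMADs through their own receptors. In normal epithelium the pathway restrains growth and in connective tissue it drives matrix production. The deposited values are FPKM (fragments per kilobase of transcript, divided by the mapped total) rounded to whole numbers, so that a gene at 1 or 2 FPKM carries little information, and the sequencing depth of each library is unknown.

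The cancers had more Tgfb1 and Tgfbi RNA than the controls, and every cancer lay above every control for both genes. Tgfb1 rose 7.43-fold in mean FPKM and Tgfbi was at 20.4 ± 6.50 FPKM (SD, n = 5) in the cancers and 8.67 ± 3.06 FPKM (SD, n = 3) in the controls. Smad7 was lower in the cancers by a narrow margin that did not survive most changes to the processing. The other 6 genes did not pass the test. All 9 were among the 14357 genes that reached 1 FPKM in 3 or more of the 8 libraries, but Inhba reached that minimum through the cancers alone. Of the 9, 2 were called higher and 1 lower by limma on log2(FPKM + 1) at an adjusted p under 0.05, where 16.2% of all genes tested were called higher and 18.3% lower. Groups without overlap, cancers above, were seen for 2 of the 9 members against 14.4% of all genes tested, and with cancers below for 0 of the 9 against 19.8%.

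**Figure D1:**
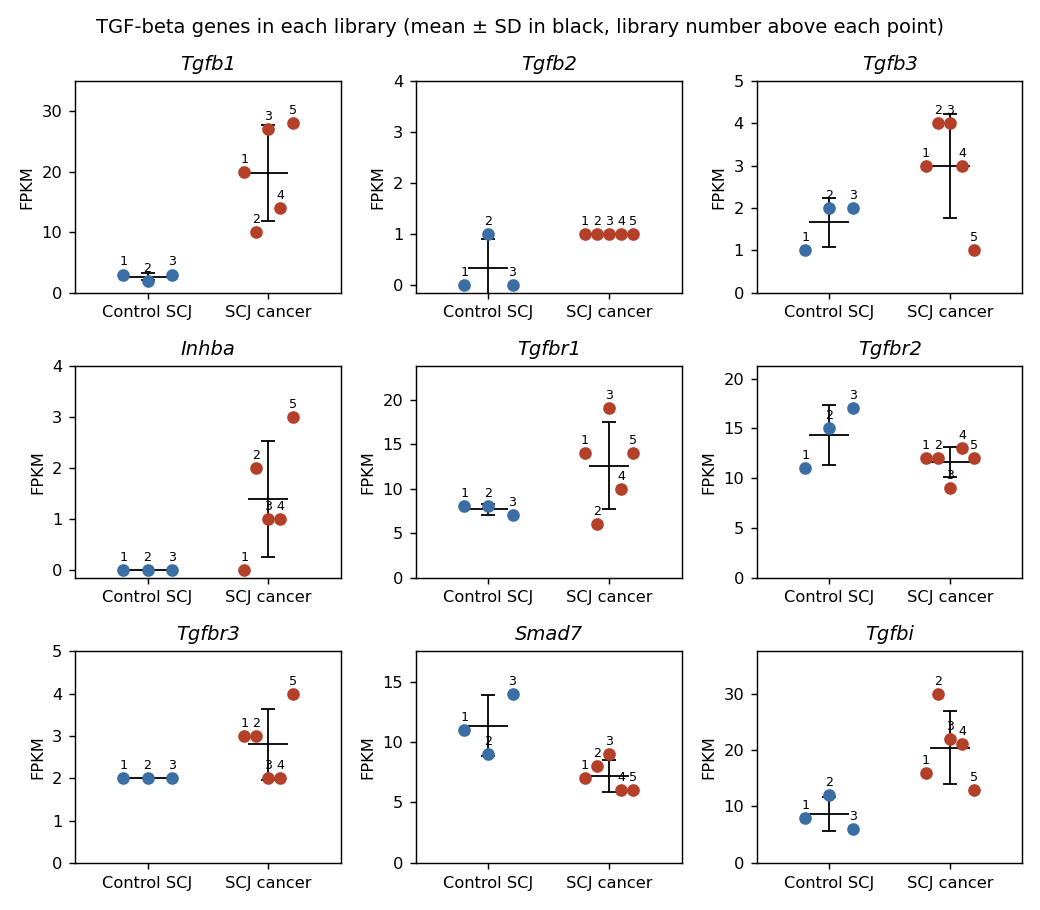
FPKM of the 9 TGF-beta genes in each library, controls in blue and SCJ cancers in red, with the mean and SD of each group in black and the library number above each point. The 5 cancers lie between 10 and 28 FPKM for Tgfb1 and the 3 controls between 2 and 3, while the groups overlap for every gene except Tgfb1 and Tgfbi.

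Scaling and tissue make-up of the libraries bear on all of these values. FPKM summed to between 403569 and 573858 in the cancers and between 887141 and 992550 in the controls, where the 10 most abundant genes took 39.3% to 44.3% of the sum against 11.1% to 19.6% in the cancers. When each library was rescaled to the same sum (TPM), the median difference of all genes moved from -0.04 to 0.81 on the log2 scale. With TPM 50% of the genes tested were called higher and 3.68% lower, or 7176 higher and 528 lower against 2326 and 2622 with FPKM, so changes under TPM are best read against that shift. Of the targeted genes, Rb1 was lower in the cancers (log2 difference -0.90, adjusted p = 0.0059 from limma) and Trp53 was not separated (-0.08, adjusted p = 0.87). The controls carried markers of both sides of the junction. Squamous epithelium markers summed to 2144 to 3561 FPKM in them and 0 to 1841 in the cancers (1 of 5 called lower), and columnar epithelium markers to 5558 to 7755 and 725 to 4650 (2 of 5 called lower and 1 higher). The 4 markers of parietal and chief cells (Atp4a, Atp4b, Gif and Pgc) summed to 3 to 9342 FPKM in the cancers and 10530 to 35384 in the controls, with 0 of 4 called. Pgc was 28832 FPKM in control 1 and listed at 0 in controls 2 and 3, so that the sums of those 2 controls hold no Pgc. The gastrokine genes Gkn1 and Gkn2 of surface mucous cells summed to 663 to 30812 FPKM in the cancers and 82914 to 116341 in the controls, with Gkn1 called lower. The 5 neuroendocrine markers, all called higher, summed to 7729 to 17149 FPKM in the cancers and 122 to 184 in the controls. Cancer 1 carried lymphocyte markers (134 FPKM against 1 to 5 in the other 7 libraries), cancer 2 smooth muscle markers (975 FPKM against 16 to 329) and cancer 5 hepatocyte markers (567 FPKM against 1 to 60), and none of the 4 lymphocyte, 7 smooth muscle and 2 hepatocyte markers tested was called with FPKM. A gene high in a single library could not reach the minimum of FPKM, so most hepatocyte markers were not tested, and 1 of the 2 tested was called with TPM. Listed at 0 in every control were 4 of the 7 lymphocyte markers, 1 of the 5 neuroendocrine markers and 5 of the 6 hepatocyte markers (Apoh, Fga, Fgb, Fgg and Serpina1a). In whole tissue, fewer cells of a type and less RNA per cell cannot be told apart.

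Tgfb1 encodes the most widely expressed of the TGF-beta ligands and lies on chromosome 7 (25687002 to 25704996, mm10, as deposited). Its FPKM was 20, 10, 27, 14 and 28 in cancers 1 to 5 and 3, 2 and 3 in controls 1 to 3. The lowest cancer, at 10 FPKM, thus lay well above the highest control, at 3. The log2 difference was 2.42 (SE 0.34, adjusted p = 0.0029 from limma), and the exact permutation test (two-sided, 56 ways to divide the libraries) gave p = 0.018, the lowest value possible here. It was 3.39 with TPM (adjusted p = 0.00098) and 2.37 after quantile normalization (adjusted p = 0.0029), and it ranged from 2.28 to 2.63 when single libraries were left out, with the call kept each time. Cancers 2 and 4, the lowest for Tgfb1, had the highest parietal and chief cell sums among the cancers at 6039 and 9342 FPKM, and the highest gastrokine sums at 30812 and 27923 FPKM. Macrophages and platelets are known sources of TGF-beta 1. The 7 macrophage markers summed to 43 to 71 FPKM in the cancers and 15 to 18 in the controls, with 2 of 7 called higher and Itgam listed at 0 in every control. The 5 platelet and megakaryocyte markers summed to 7 to 21 FPKM in the cancers and 5 to 9 in the controls, overlapping, with 0 of the 4 tested called. The part of these cells in the Tgfb1 difference was not tested.

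Promoter sequences from RefSeq (GRCm38.p6) are shown for the ligand and the responder whose groups did not overlap, Tgfb1 and Tgfbi, and for Tgfb2, the ligand that stayed near the floor. Each is the 250 bases upstream of the annotated start, 5′ to 3′ along the gene. Capitals mark CAGAC, a sequence that SMAD3 and SMAD4 can bind, or GGGCGG, the GC box bound by Sp1, and a match on the opposite strand appears as GTCTG or CCGCCC.
Tgfb1, chr7:25686752-25687001, plus strand: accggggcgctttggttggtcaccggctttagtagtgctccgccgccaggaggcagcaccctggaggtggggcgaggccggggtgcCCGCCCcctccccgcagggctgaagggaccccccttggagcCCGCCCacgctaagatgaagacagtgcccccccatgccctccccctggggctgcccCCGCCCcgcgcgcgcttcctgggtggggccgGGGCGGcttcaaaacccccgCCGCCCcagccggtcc
Tgfbi, chr13:56609336-56609585, plus strand: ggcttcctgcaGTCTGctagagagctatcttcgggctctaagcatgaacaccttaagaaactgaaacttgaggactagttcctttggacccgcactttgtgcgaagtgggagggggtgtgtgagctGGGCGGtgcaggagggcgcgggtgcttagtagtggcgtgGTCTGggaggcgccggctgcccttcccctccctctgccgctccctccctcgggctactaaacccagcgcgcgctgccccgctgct
Tgfb2, chr1:186705990-186706239, minus strand: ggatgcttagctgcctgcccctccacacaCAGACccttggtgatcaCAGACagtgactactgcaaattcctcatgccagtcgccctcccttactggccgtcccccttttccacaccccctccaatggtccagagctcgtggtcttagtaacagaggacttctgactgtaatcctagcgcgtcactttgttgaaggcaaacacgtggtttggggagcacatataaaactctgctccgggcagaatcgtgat
The Tgfb1 window held 5 GC boxes and 0 CAGAC matches with 75.2% G and C. The Tgfbi window held 2 CAGAC matches and 1 GC box at 62.4%, and the Tgfb2 window 2 CAGAC matches and 0 GC boxes at 53.6%. Matches were counted on both strands, and none of those marked overlapped another. CAGAC occurs in 42.2% and GGGCGG in 32.7% of the 32851 promoter windows of this length, so such matches are common. The palindrome GTCTAGAC (0.167% of windows) and the AP-1 site TGANTCA (6.75%) were in none of the 3 windows. Of the 9 genes, 6 had a promoter entry, and a match describes letters only.

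Tgfb2 (chromosome 1, 186623186 to 186705992) encodes a ligand best known from development of heart, eye and skeleton. It was at 1 FPKM in each of the 5 cancers and at 0, 1 and 0 FPKM in controls 1 to 3. A step of 1 FPKM thus carries the whole difference of 0.67 on the log2 scale (SE 0.24, adjusted p = 0.062 from limma), which passed when control 2 was left out (log2 difference 1, adjusted p = 0.012). Tgfb3 (chromosome 12, 86056743 to 86079041), whose product is needed for closure of the palate, was at 3, 4, 4, 3 and 1 FPKM in cancers 1 to 5 and at 1, 2 and 2 in the controls. Cancers 1 to 4 lay above every control and cancer 5 at the lowest control, and the log2 difference of 0.54 did not pass (SE 0.33, adjusted p = 0.23 from limma) but did without cancer 5 (0.77, adjusted p = 0.030). Cancer 5 also had the lowest sum of the 7 fibroblast markers, 45 FPKM against 119 to 205 in cancers 1 to 4 and 52 to 93 in the controls. Of these 7 markers 2 were called higher, Fap was listed at 0 in every control, and their part in Tgfb3 was not tested. With TPM both genes passed, at 1.27 for Tgfb2 (adjusted p = 0.013) and 1.31 for Tgfb3 (adjusted p = 0.023), against the 0.81 shift of all genes. Less the median of all genes, Tgfb2 was at 0.70 with FPKM and 0.46 with TPM, and Tgfb3 at 0.58 and 0.50.

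The ligand genes can also be compared within a library, where rescaling changes nothing. Their sum was 24, 15, 32, 18 and 30 FPKM in cancers 1 to 5 and 4, 5 and 5 FPKM in controls 1 to 3. Tgfb1 made up 83.3%, 66.7%, 84.4%, 77.8% and 93.3% of it in cancers 1 to 5, against 75%, 40% and 60% in the controls. It was the most abundant of the 3 in every cancer and in controls 1 and 3, and tied with Tgfb3 in control 2. Tgfb3 made up 14.3% ± 8.45 (SD, n = 5) of it in the cancers and 35.0% ± 8.66 (SD, n = 3) in the controls. Neither shift passed after adjustment over the 6 ligand and receptor shares (exact permutation test, p = 0.054 for Tgfb1 and p = 0.036 for Tgfb3, adjusted p = 0.11 for both). The control shares rest on sums of 4 or 5 FPKM, so that 1 FPKM stands for 20% or more of each.

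**Figure D2:**
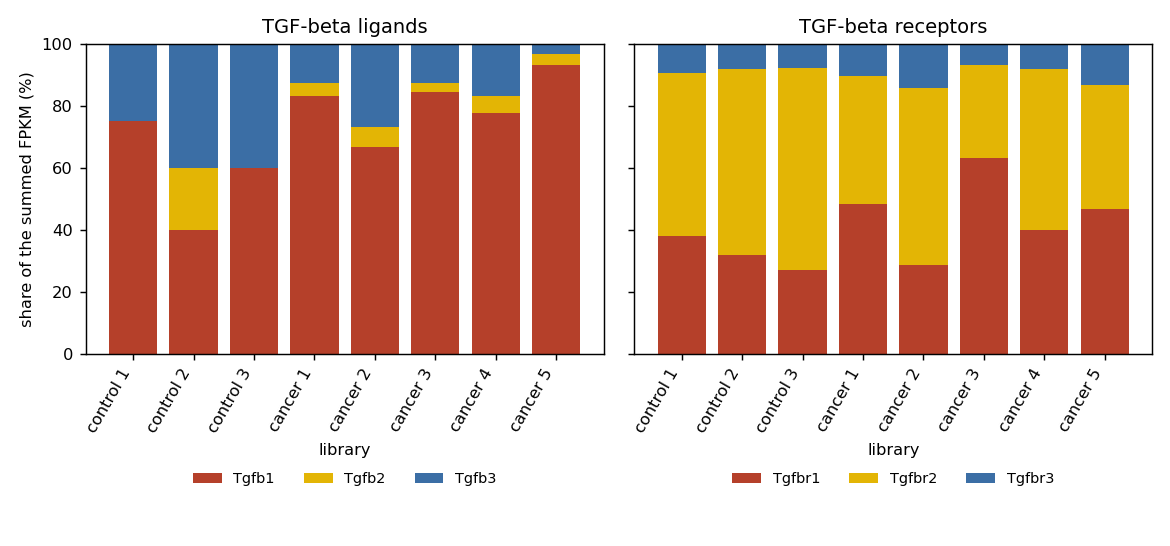
Share of each TGF-beta ligand gene (left) and receptor gene (right) in the summed FPKM of its 3 genes, in percent, for each control and cancer library. Tgfb1 takes 66.7% to 93.3% of the ligand sum in the cancers and 40% to 75% in the controls, and the Tgfbr1 and Tgfbr2 shares overlap between the groups.

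Inhba (chromosome 13, 16014475 to 16027211) encodes the beta A subunit shared by activin A and inhibin A. It was listed at 0 FPKM in all 3 controls and at 0, 2, 1, 1 and 3 FPKM in cancers 1 to 5. Cancers 2 to 5 thus had values above the controls and cancer 1 did not, and no fold is given against a group listed at 0. The difference did not pass (adjusted p = 0.066 from limma; exact permutation test, p = 0.11), although it did with TPM (adjusted p = 0.040), with a pseudocount of 0.1 (adjusted p = 0.0497) and without cancer 1 (adjusted p = 0.013).

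The receptors moved less than Tgfb1. Tgfbr1 (chromosome 4, 47353305 to 47414924), the signalling type I receptor, was at 14, 6, 19, 10 and 14 FPKM in cancers 1 to 5 and at 8, 8 and 7 in the controls. Cancer 2 lay below and the other 4 cancers above every control, and the log2 difference of 0.57 did not pass (SE 0.32, adjusted p = 0.19 from limma) but did without cancer 2 (0.79, adjusted p = 0.028). Tgfbr2 (chromosome 9, 116087695 to 116175363), the ligand-binding type II receptor, was at 12, 12, 9, 13 and 12 FPKM in the cancers and at 11, 15 and 17 in the controls. The groups overlapped, with the highest values in controls 2 and 3. Its log2 difference was -0.27 (SE 0.18, adjusted p = 0.25), and with TPM it reversed to 0.65 (adjusted p = 0.032), below the 0.81 shift of all genes. Tgfbr3 (chromosome 5, 107106570 to 107289595), the co-receptor betaglycan, was at 3, 3, 2, 2 and 4 FPKM in the cancers and at 2 FPKM in each control. Its log2 difference of 0.31 (SE 0.20, adjusted p = 0.24) became -0.084 after quantile normalization (adjusted p = 0.80) and 1.10 with TPM (adjusted p = 0.017). Less the median of all genes, Tgfbr3 was at 0.35 with FPKM and 0.29 with TPM.

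The sum of the 3 receptors was 21 to 30 FPKM in the cancers and 21 to 26 in the controls. Tgfbr2 made up 44.1% ± 10.7 (SD, n = 5) of it in the cancers and 59.3% ± 6.53 (SD, n = 3) in the controls, whereas Tgfbr1 made up 45.4% ± 12.7 and 32.3% ± 5.59 of it. These shares overlapped between the groups and did not pass (exact permutation test, adjusted p = 0.11 for Tgfbr2 and 0.24 for Tgfbr1). Endothelial cells express TGFBR2 and betaglycan, and the 5 endothelial markers summed to 14 to 50 FPKM in the cancers and 8 to 12 in the controls, with 3 of 5 called higher. The part of these cells in the receptor values was not tested.

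Smad7 (chromosome 18) encodes an inhibitory SMAD that TGF-beta itself induces and that brings SMURF ubiquitin ligases to TGFBR1. It was at 7, 8, 9, 6 and 6 FPKM in cancers 1 to 5 and at 11, 9 and 14 in controls 1 to 3. Cancers 1, 2, 4 and 5 lay below every control and cancer 3 tied with control 2. The log2 difference was -0.58 (SE 0.19, adjusted p = 0.046 from limma; exact permutation test, p = 0.054). The call was lost on leaving out any library but cancer 3, with adjusted p from 0.051 to 0.15 for the 7 libraries whose removal ended it (cancers 1, 2, 4 and 5 and controls 1, 2 and 3), and it reversed to 0.31 with TPM (adjusted p = 0.30), below the 0.81 shift of all genes.

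Tgfbi (chromosome 13, 56609603 to 56639339) encodes a secreted matrix protein that binds integrins and collagens and was named for its induction by TGF-beta. It was at 16, 30, 22, 21 and 13 FPKM in cancers 1 to 5 and at 8, 12 and 6 in controls 1 to 3. Cancer 5, the lowest cancer, lay 1 FPKM above control 2, the highest control. The log2 difference was 1.14 (SE 0.30, adjusted p = 0.023 from limma; exact permutation test, p = 0.018), and it was 2.09 with TPM (adjusted p = 0.0012). The call was lost without cancer 3 (adjusted p = 0.056), control 1 (0.080) or control 3 (0.089). Cancer 2, the highest for Tgfbi, also had the highest fibroblast and smooth muscle sums (205 and 975 FPKM), and cancer 5 the lowest fibroblast sum. The 7 smooth muscle markers summed to 16 to 975 FPKM in the cancers and 183 to 329 in the controls, with 0 of 7 called. The part of these cells in Tgfbi was not tested.

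**Figure D3:**
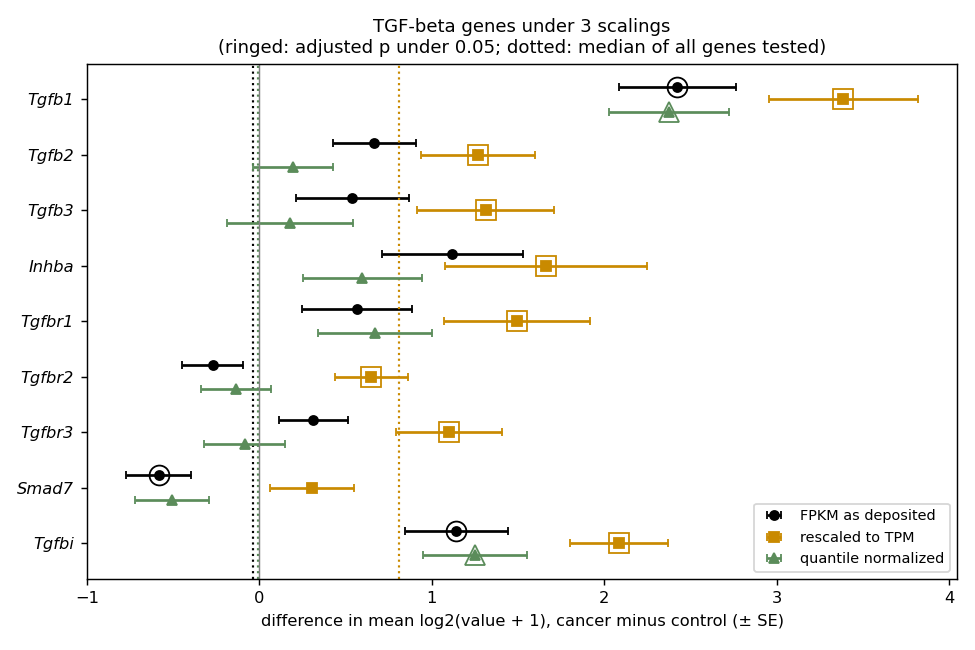
Difference between cancers and controls in mean log2(value + 1), with SE, for the 9 genes under FPKM as deposited, TPM and quantile normalization, with a ring where the adjusted p was under 0.05 and a dotted line at the median of all genes tested under each scaling. Tgfb1 and Tgfbi lie above the median of all genes under all 3, and Tgfbr2 and Smad7 are negative with FPKM and positive with TPM.

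Because FPKM is scaled to transcript length, levels can be ordered between genes. In the cancers Tgfbi (20.4 FPKM) and Tgfb1 (19.8) came first, before Tgfbr1 (12.6), Tgfbr2 (11.6), Smad7 (7.2), Tgfb3 (3), Tgfbr3 (2.8), Inhba (1.4) and Tgfb2 (1). In the controls Tgfbr2 (14.3 FPKM) came first, then Smad7 (11.3), Tgfbi (8.67), Tgfbr1 (7.67), Tgfb1 (2.67), Tgfbr3 (2), Tgfb3 (1.67), Tgfb2 (0.333) and Inhba, listed at 0. Neighbours in these orders had overlapping ranges, except Smad7 and Tgfb3 in the cancers and Tgfbr1 and Tgfb1 in the controls. Tgfb1 thus stood below Tgfbr1, Tgfbr2 and Smad7 in every control. In the cancers it stood above Tgfbr1 and Smad7 in each library and above Tgfbr2 in all but cancer 2, where it was at 10 FPKM and Tgfbr2 at 12.

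Genes with the most similar profile were sought among up to 9138 genes with a mean FPKM of at least 5, by the root mean square difference of centred log2(FPKM + 1) over the 8 libraries. Nearest to Tgfb1 were Aga (0.164), which encodes the lysosomal enzyme aspartylglucosaminidase, and Prdx4 (0.183), a peroxiredoxin of the secretory pathway. Aga was at 113, 59, 176, 84 and 198 FPKM in cancers 1 to 5 and at 22, 22 and 24 in the controls, and so had its lowest cancers in the same libraries as Tgfb1. Prelp (0.244), a leucine-rich proteoglycan of connective tissue, and the tetraspanin Tspan12 (0.257) were nearest to Tgfbi. Sdccag8 (0.0788) and Fem1b (0.130) were nearest to Tgfbr1, Tfeb (0.0907) and Rabggta (0.0956) to Tgfbr2, Rangap1 (0.111) and Nup62 (0.126) to Tgfbr3, and Mocs3 (0.106) and Zfyve1 (0.127) to Smad7. Tbc1d19 (0.210) and Gyg (0.234) were nearest to Tgfb2, Rsu1 (0.186) and Fbxl6 (0.236) to Tgfb3, and Hspb8 (0.196) and Col16a1 (0.296) to Inhba.

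Around these genes, 75 others of the pathway were read in 4 lists, of which 68 could be tested, and 17 were called higher and 12 lower, against 16.2% and 18.3% of all genes tested. With FPKM the share called lower was thus close to that of all genes, and the share called higher was above that of all genes. With TPM 39 were called higher and 2 lower, against 50% and 3.68% of all genes. After quantile normalization it was 13 and 6, against 1891 and 1902 of the 14357 genes tested. In either direction, 42.6% of the 68 were called with FPKM, 60.3% with TPM and 27.9% after quantile normalization. Among all genes these shares were 34.5%, 53.7% and 26.4%. Of the 17 called higher with FPKM, 3 had every control listed at 0 and so had passed the minimum of FPKM through the cancers alone. Genes of latency and activation come first, since they decide how much ligand is released. Of 13 listed, 12 were tested, 3 were called higher and 1 lower, with a median log2 difference of 0.60 against -0.04 for all genes. These 4 calls are 33.3% of the genes tested, close to the 34.5% of all genes called in either direction with FPKM. With TPM it was 8 higher and 1 lower (75% against 53.7%), and after quantile normalization 1 higher and 1 lower (16.7% against 26.4%). Furin, the protease that cuts TGF-beta precursors among many other substrates, was the one that fell. Its FPKM was 19, 37, 21, 35 and 39 in cancers 1 to 5 and 238, 555 and 541 in the controls. The controls were thus 14.7 times the cancers in mean FPKM, with a log2 difference of -3.80 (SE 0.37, adjusted p = 0.0011 from limma) that was -2.85 with TPM and kept its call without any single library. Thbs1, which encodes the latency-releasing protein thrombospondin 1, was at 9, 17, 32, 22 and 16 FPKM in the cancers and at 4, 8 and 8 in the controls. It rose by 1.34 (SE 0.39, adjusted p = 0.033), and without any one of cancers 2, 3, 4 and 5 or controls 1, 2 and 3 the call was lost (adjusted p up to 0.12). Ltbp2, a latent TGF-beta binding protein of the matrix, was listed at 0 in every control and at 7, 3, 9, 2 and 1 FPKM in the cancers (adjusted p = 0.017). Lrrc33, which tethers latent TGF-beta on macrophages and microglia, was also listed at 0 in every control and reached 5, 1, 2, 1 and 1 FPKM (adjusted p = 0.024). Both passed the minimum of FPKM through the cancers alone. Without control 1, 2 or 3 neither was called, nor was Lrrc33 without cancer 3 (adjusted p up to 0.061 for Ltbp2 and 0.077 for Lrrc33). Ltbp2 and Lrrc33 were also not called after quantile normalization (adjusted p = 0.0504 and 0.12). The integrin gene Itgb6, whose product releases TGF-beta on epithelial cells, was at 1, 12, 2, 7 and 10 FPKM in the cancers and at 28, 20 and 13 in the controls, below every control but short of the threshold (log2 difference -1.80, SE 0.66, adjusted p = 0.067), which it passed without cancer 2 (adjusted p = 0.046). Fbn1, the microfibril gene, was at 6, 5, 7, 2 and 1 FPKM in the cancers and at 1 in each control (adjusted p = 0.079), and passed without cancer 5 (adjusted p = 0.021) and with TPM (adjusted p = 0.018).

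**Figure D4:**
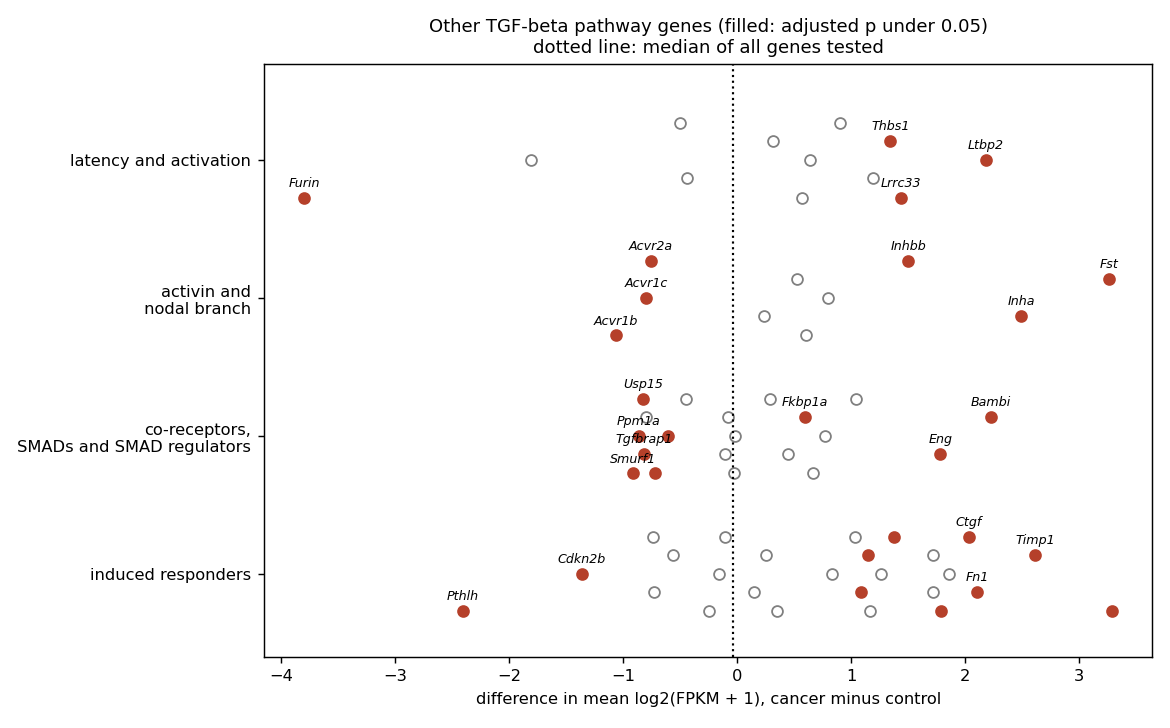
Difference between cancers and controls in mean log2(FPKM + 1) for the tested genes of 4 TGF-beta pathway lists, 1 point per gene, filled where the adjusted p was under 0.05, with most of the larger changes named and a dotted line at the median of all genes. Furin lies at -3.80, the lowest of the plot, and Fst, at 3.26, lies near the upper end.

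In the activin and nodal branch, 15 genes were listed, 5 were at 0 in every library and 10 were tested, with 3 called higher and 3 lower (median log2 difference 0.56), or 60% called against 34.5% of all genes. With TPM it was 4 higher and 0 lower, 40% against 53.7%, and after quantile normalization 3 and 3, 60% against 26.4%. The order of these shares thus depends on the scaling. The genes that rose encode inhibin subunits and an activin antagonist. Inha, the inhibin alpha subunit, was at 8, 4, 10, 5 and 5 FPKM in the cancers and at 0, 0 and 1 in the controls (log2 difference 2.49, SE 0.34, adjusted p = 0.0028). Inhbb, the beta B subunit, was at 8, 7, 9, 8 and 10 FPKM in the cancers and at 2, 2 and 3 in the controls (1.5, SE 0.16, adjusted p = 0.0013). Fst encodes follistatin, which binds activins and blocks them. It was at 72, 15, 14, 20 and 6 FPKM in the cancers and at 1 in each control, 25.4 times higher in mean FPKM (3.26, SE 0.65, adjusted p = 0.0094). The highest value was in cancer 1, without which the means differed 13.8-fold. These 3 calls held without any single library, as did that of Acvr1b. The genes that fell encode activin receptors. Acvr1b was at 9, 13, 8, 8 and 13 FPKM in the cancers and at 22, 20 and 24 in the controls (-1.06, SE 0.20, adjusted p = 0.0076), a difference of -0.15 with TPM that did not pass (adjusted p = 0.58). Acvr2a (-0.75, SE 0.20, adjusted p = 0.026) reversed to 0.087 with TPM and was not called without control 1 or 2 (adjusted p up to 0.093). Acvr1c was at 1 FPKM in each control and in cancer 4 and at 0 in the other 4 cancers, and its call (adjusted p = 0.045) was lost without any library but cancer 4 (adjusted p up to 0.12). Gdf11 and Fstl3 were listed at 0 in every control and at up to 3 and 1 FPKM in the cancers, and neither passed (adjusted p = 0.19 and 0.16).

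Among 20 co-receptors, SMADs and SMAD regulators, all tested, 3 were called higher and 6 lower (median log2 difference -0.06), or 45% called against 34.5% of all genes. With TPM it was 11 higher and 0 lower (55% against 53.7%), and after quantile normalization 3 in all (15% against 26.4%). Bambi, a decoy receptor without a kinase domain that TGF-beta and Wnt signals can induce, was listed at 0 in every control and at 9, 4, 4, 2 and 2 FPKM in the cancers (adjusted p = 0.0059), and it too passed the minimum through the cancers alone. Eng, the endothelial co-receptor endoglin, was at 14, 9, 11, 10 and 2 FPKM in the cancers and at 1, 2 and 2 in the controls (log2 difference 1.78, SE 0.51, adjusted p = 0.031). The endothelial markers moved with it, as given above, and its call was lost without any library but cancer 5 (adjusted p up to 0.11). Eng was also not called after quantile normalization (adjusted p = 0.064). Fkbp1a, whose product FKBP12 holds TGFBR1 inactive, was at 105 to 132 FPKM in the cancers and at 65 to 83 in the controls (0.60, SE 0.14, adjusted p = 0.015), with the call lost without control 2 (adjusted p = 0.069).

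The 6 genes called lower in that list were Smurf1 and Smurf2, ubiquitin ligases that act with SMAD7, the co-repressor gene Ski, the SMAD phosphatase gene Ppm1a, the deubiquitinase gene Usp15 and Tgfbrap1, which encodes a receptor-associated protein. Ppm1a was at 26, 37, 29, 35 and 28 FPKM in the cancers and at 61, 50 and 60 in the controls (log2 difference -0.86, SE 0.15, adjusted p = 0.0063). Tgfbrap1 was at 6, 6, 6, 6 and 7 FPKM in the cancers and at 11, 11 and 13 in the controls (-0.81, SE 0.12, adjusted p = 0.0033). Smurf1 fell by 0.92 (adjusted p = 0.024) and Usp15 by 0.83 (adjusted p = 0.025) on the log2 scale. None of the 6 was called with TPM, where Smurf1 was at -0.02, Ppm1a at 0.090, Tgfbrap1 at 0.063 and Usp15 at 0.11 against the 0.81 shift. After quantile normalization only Tgfbrap1 of the 6 was called. Ppm1a and Tgfbrap1 kept their calls without any single library. Smurf1 was not called without cancer 3 or any control, Usp15 without cancer 1 or control 1 or 2, Smurf2 without control 1 or 2 and Ski without control 1 or 3 (adjusted p up to 0.093, 0.098, 0.073 and 0.061). Smad3 was at 3, 8, 2, 5 and 7 FPKM in the cancers and at 8, 8 and 10 in the controls and did not pass (-0.80, SE 0.37, adjusted p = 0.13), and Ldlrad4 was at 2, 2, 10, 2 and 3 against 1 in each control (adjusted p = 0.098), and passed without cancer 3 (adjusted p = 0.021) and with TPM (adjusted p = 0.019).

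Of 27 genes known to be induced by TGF-beta in other settings, 26 were tested, 8 were called higher and 2 lower, with a median log2 difference of 1.06, or 38.5% called against 34.5% of all genes. With TPM it was 16 higher and 1 lower (65.4% against 53.7%), and after quantile normalization 7 higher and 1 lower (30.8% against 26.4%). Timp1, an inhibitor of matrix metalloproteases, was at 8, 24, 19, 14 and 7 FPKM in the cancers and at 1, 1 and 2 in the controls (log2 difference 2.61, SE 0.41, adjusted p = 0.0040). Fn1, fibronectin, was at 32, 44, 36, 23 and 17 FPKM in the cancers and at 5, 7 and 6 in the controls (2.10, SE 0.30, adjusted p = 0.0030). Ctgf, a matricellular protein also called CCN2, was at 12, 24, 31, 53 and 14 FPKM in the cancers and at 4, 5 and 6 in the controls (2.03, SE 0.46, adjusted p = 0.014), with the call lost without control 1 (adjusted p = 0.059). Every cancer lay above every control for these 3 genes. The collagen crosslinker Lox (1.79), the transcription factors Zeb1 (1.15) and Snai1 (1.08) and the sphingosine kinase Sphk1 (1.37) were also called higher, and Sphk1 was not called without control 1, 2 or 3 (adjusted p up to 0.062). Zeb1 and Snai1 rest on values of at most 5 and 3 FPKM, and neither was called after quantile normalization (adjusted p = 0.059 and 0.093). The fibroblast sum of 45 to 205 FPKM in the cancers against 52 to 93 in the controls overlapped between the groups, and its part in these matrix genes was not tested.

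The 2 responders that fell were Pthlh and Cdkn2b. Pthlh, parathyroid hormone-related protein, was at 0, 2, 1, 3 and 1 FPKM in the cancers and at 6, 11 and 17 in the controls (log2 difference -2.40, SE 0.48, adjusted p = 0.0094; -1.95 with TPM). Cdkn2b, the cell cycle inhibitor p15 through which TGF-beta arrests epithelial cells, was at 8, 18, 15, 34 and 17 FPKM in the cancers and at 47, 39 and 48 in the controls. Its difference was -1.36 (SE 0.38, adjusted p = 0.029), and -0.43 with TPM (adjusted p = 0.25), and the call was lost without cancer 3 or 5 or any control (adjusted p up to 0.096). Cdkn2b was also not called after quantile normalization (adjusted p = 0.070). The 5 squamous epithelium markers (4 keratins and Sprr3) summed to 0 to 1841 FPKM in the cancers and 2144 to 3561 in the controls, and their part in these falls was not tested. Il11 was listed at 0 in every control and in cancer 1 and at 4, 2, 2 and 13 FPKM in cancers 2 to 5 (adjusted p = 0.081), and passed without cancer 1 (adjusted p = 0.024) and with TPM (adjusted p = 0.041). Tnc was at 2, 14, 12, 18 and 6 FPKM in the cancers and at 2, 3 and 1 in the controls (adjusted p = 0.058), and passed without cancer 1 (adjusted p = 0.012), with TPM (adjusted p = 0.0060) and with a mean FPKM of at least 5 (adjusted p = 0.047).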

How the data were processed

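Total RNA of 5 SCJ cancers and of the SCJ of 3 wild-type stomachs was selected for polyA and made into directional libraries per the labels. Per the submitters' processing notes and the methods, the authors trimmed reads with cutadapt 1.8, used TopHat2 2.0.13 and cuffquant, and made FPKM with Cuffnorm 2.2.1 for mm10 genes. The Cuffnorm normalization option is not given in the sources used here. The deposited FPKM are rounded to whole numbers (100% of values) and were treated as a score, not as counts, so depth is unknown and no counting intervals are given. No 2 libraries held identical values.

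Genes that reached 1 FPKM in 3 or more of 8 libraries (14357 of 23361) were fitted in R 4.3.3 by limma 3.58.1, using lmFit and trended eBayes on log2(FPKM + 1). P-values were adjusted by Benjamini-Hochberg over all genes tested, with a threshold of 0.05. Log2 differences are on this scale, which understates the change of low genes, and folds named as such are ratios of mean FPKM. Single genes and shares underwent an exact permutation test, two-sided, over 56 assignments, whose smallest p is 0.018. The fit was tested on simulated data.

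The 9 members and all lists were chosen with earlier results of these data known. All 140 entries of the pathway and marker lists were found in the table. Named were all members and, per list, up to 4 called genes in each direction and up to 2 others with the largest differences, plus the 2 nearest profiles per member. Smurf2, Ski, Lox, Zeb1, Snai1 and Sphk1 were added after their values were seen to complete the calls, and GGGCGG and TGANTCA were added to the motifs. Alternatives were a pseudocount of 0.1, no filter, a mean FPKM of at least 5, TPM, quantile normalization, eBayes without trend, a replicate block and leaving out each library. Cancers 3 and 4 alone were compared with the controls as an alternative chosen after seeing the data. Protein sequences were not used here, and some genes that are counted in the lists are not reported here by name.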

Additional observations from a re-analysis of the deposited data

Results flagged for a closer look

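Among the cancers, 8 of 57 values examined had the highest or the lowest library separated from the next by more than 0.71 of the group's range on the log2(value + 1) scale (percent for shares), where chance gives about 1 in 20, or 2.85. For Tgfb3 this gap was 0.756 of the log2 range, with cancer 5 at 1 FPKM below 3 or 4 in the other cancers. For Tgfbr2 it was 0.780, with cancer 3 at 9 FPKM below 12 or 13. Eng had a gap of 0.748, again with cancer 5 lowest, and Ldlrad4 one of 0.779, with cancer 3 highest at 10 FPKM. Acvr1c and Tgfbrap1 had a gap of 1, since 4 cancers shared 1 value (0 and 6 FPKM) and the other lay 1 FPKM above, which is 1 rounding step. The lymphocyte marker sum had a gap of 0.739, with cancer 1 highest. The neuroendocrine marker sum had a gap of 0.799, with cancer 2 lowest at 7729 FPKM, still above the 122 to 184 of the controls.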

How the results depend on the processing

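Over the alternatives run, the members' log2 differences kept direction and side of the threshold in 110 cases, lost the call in 16, gained it in 10 and reversed in 3. With TPM 8 members were called (all higher), with Tgfb2 at 1.27, Tgfb3 at 1.31, Inhba at 1.66, Tgfbr1 at 1.49 and Tgfbr3 at 1.10, and Tgfbr2 (0.65) and Smad7 (0.31) reversed. These values stand against the 0.81 shift of all genes. TPM gave 7704 calls over all genes against 4948, 9 against 4 in latency and activation and 17 against 10 among responders. It reversed Acvr2a (0.087), Smad3 (0.025), Ppm1a (0.090), Usp15 (0.11) and Tgfbrap1 (0.063). The rescaling itself raises every cancer value against the controls. Quantile normalization reversed Tgfbr3 (-0.084), ended the call of Smad7 (-0.51) and left 2 calls in latency and activation and 3 among co-receptors and SMADs. A pseudocount of 0.1 put Inhba past the threshold (3.25), a value that depends on the pseudocount because the controls are at 0. Without the filter Smad7 (-0.58) was no longer called, and a mean FPKM of at least 5 left 2 latency calls and removed Tgfb2, Tgfb3, Tgfbr3 and Inhba. Cancers 3 and 4 alone, with fewer libraries, gave 2526 calls over all genes, 1 among the members and 2 in latency and activation, and neither Smad7 (-0.54) nor Tgfbi (1.27) passed. For the Tgfbr3 share of the receptors this subset reversed the difference to -1.07 percentage points.

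Same-numbered cancers and controls did not deviate together (correlations -0.021, -0.19 and -0.10, with 0 of 3 cancers closest to the control of their own number). The numbers thus gave no sign of pairing, but a check on 3 numbers cannot exclude it. Replicates 4 and 5 exist only among the cancers, so a replicate block takes cancers 4 and 5 out of the comparison. What is left rests on cancers 1 to 3 and the 3 controls. With this block, 1534 genes were called, with 1 member, 3 genes of the activin branch, 2 co-receptors and SMADs and 5 responders. Smad7 was at -0.44 and Tgfbi at 1.30 without a call. Leaving out each library in turn gave 2490 to 5252 calls over all genes (2490, 2643 and 2815 without control 1, 2 and 3), 1 to 3 among the members, 1 to 5 in latency and activation, 4 to 6 in the activin branch, 4 to 10 among co-receptors and SMADs and 6 to 13 among responders. The range was 0.50 to 1 for Tgfb2, 0.34 to 0.77 for Tgfb3, 0.41 to 0.79 for Tgfbr1, 0.90 to 1.40 for Inhba, -0.72 to -0.43 for Smad7 and 0.93 to 1.38 for Tgfbi, and for the Tgfb2 share -5.43 to 4.57 percentage points, reversed without control 2. Except where stated, the cause was not tested. Rounding to whole FPKM leaves few steps for genes at a few FPKM, among them Tgfb2, Tgfb3, Tgfbr3 and Inhba.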
